A study of Mus musculus with 30 samples.

Results

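The comparison described here set the stroke-denervated cervical hemicord at 42 dpi (days post injury) against that of sham-operated mice. Its members were the 5 animals that the labels place at 42 dpi (A1-1, A1-2, A1-3, A1-4 and A3-4) and the 5 sham-operated animals (A11-1, A11-4, A12-1, A12-2 and A12-3), together 10 of the 30 animals of the series. All 16995 genes of the deposited table were compared. All animals were adult mice of the strain labelled C57BL/6, and per the study's methods they were female. At 42 dpi the animals had received a unilateral photothrombotic stroke of the right sensorimotor cortex, in which Rose Bengal in the blood is activated by light through the skull, while the sham group was operated without illumination. The intermediate laminae of spinal levels C5/C6 on the denervated side were dissected by hand, so every sample was a mixture of neurons, glia and vessels. The RNA was depleted of ribosomal RNA and sequenced with a kit that does not keep the strand.

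The corticospinal tract carries commands for skilled movement from the cortex to interneurons of these laminae. When the cortex of one side dies, its fibers and their myelin degenerate on the opposite side of the cord, microglia clear the debris, and fibers of the intact cortex grow across the midline over the following weeks. In that setting, at the latest time point of the series the question was which genes of the target tissue still differed from those of sham-operated animals. Myelin is made by oligodendrocytes, microglia are the resident phagocytes of the cord, and immediate early genes such as Fos and Btg2 are transcribed within minutes of neuronal activity or other stimuli and are read as a sign of recent stimulation.

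Values are normalized CPM (read counts relative to library size, scaled between animals by the authors), rounded to 0.1. They are levels per gene, not per length, so levels of different genes are not compared. Fold changes are differences of group means of log2(value + 0.5), 42 dpi minus sham, and understate the change of genes with low values. SDEGs (significantly differentially expressed genes) had an adjusted p under 0.05 (limma, Benjamini-Hochberg over 16995 genes) and a fold change above 1.5. The depth of the samples is unknown, because no read totals were used.

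The animals of the groups differed in ribosomal RNA, in the sum of values, in the number of genes above 0 and in a slope on GC content. Pearson's r of log2 values over genes (not independent of each other) was 0.979 to 0.990 for pairs of animals of a group and 0.978 to 0.987 for pairs across groups, and A3-4 had the lowest median r with its own group (0.980). Rn18s-rs5 (18S ribosomal RNA) had values of 30321 to 52929 in the sham group and of 78737 to 457302 at 42 dpi, with no overlap (exact two-sided permutation test, p = 0.00794, the smallest that 5 against 5 animals allow). It was lowest in A1-3 and highest in A3-4 among the animals at 42 dpi. The sum of all values was 777344 to 818510 in sham animals and 884368 to 1634700 at 42 dpi (exact permutation p = 0.00794), while the median over genes was 10.6 to 11.1 and 10.7 to 11 (p = 0.802). Genes above 0 numbered 16939 to 16963 and 16911 to 16948 (exact permutation p = 0.0238). Genes rich in GC tended to lower values at 42 dpi. The slope of the log2 value relative to the sham mean, per 10 percentage points of GC content, was -0.14 to -0.035 in these animals and -0.043 to 0.038 in sham animals (exact permutation p = 0.0238). The labels give unit numbers 1 and 3 to the animals at 42 dpi and 11 and 12 to the sham animals, so unit and group cannot be told apart. The labels do not say what a unit is, and when the sham animals were killed is not given in the sources used here.

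**Figure D1:**
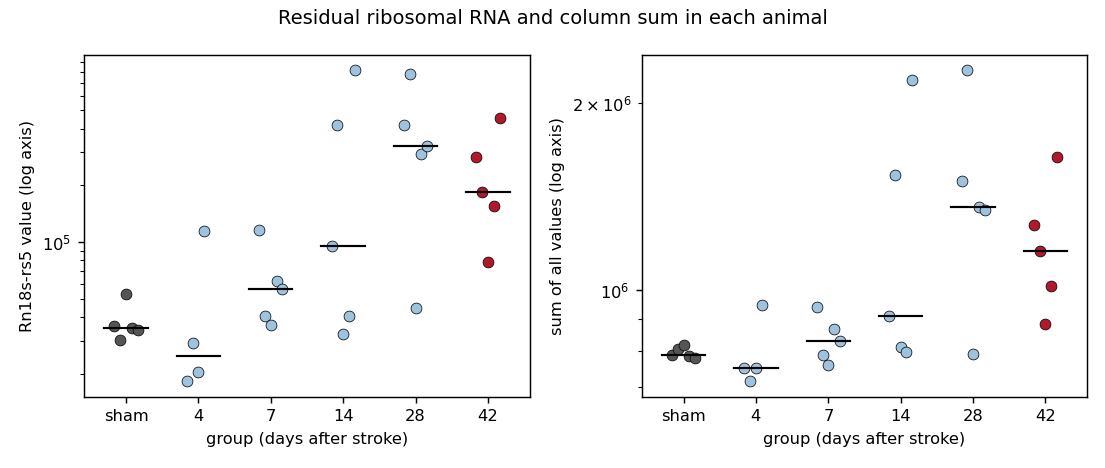
Value of Rn18s-rs5 (left) and sum of all values (right) in each animal, both on log axes, by group in days after stroke. Points are animals and bars are group medians, with sham in grey and 42 dpi in red. All 5 animals at 42 dpi lie above the highest sham value, 52929 for Rn18s-rs5.

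Few genes differed between 42 dpi and sham by the limits set for SDEGs. The 4 SDEGs, 0.0235% of the genes tested, were Cdr1 and Mir6240, which were upregulated, and Gsn and Gm26315, which were downregulated. In each of them the 5 animals at 42 dpi were separated from the 5 sham animals. The number of SDEGs depended on the fit. It was 43 when only the 10 animals were fitted and 1 to 12 when single animals were left out. Without a limit on adjusted p the picture was broader. An unadjusted limma p under 0.05 was found for 1428 genes with higher values (8.4% of those tested) and for 1079 with lower values (6.35%). No overlap between the groups was found for 376 genes with higher values (2.21%) and for 187 with lower values (1.1%). With all values outside the ribosomal RNA rows scaled to the same sum, the genes with an unadjusted p under 0.05 numbered 1047 higher and 1190 lower. The median log2 fold change over all genes was -0.0070.

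**Figure D2:**
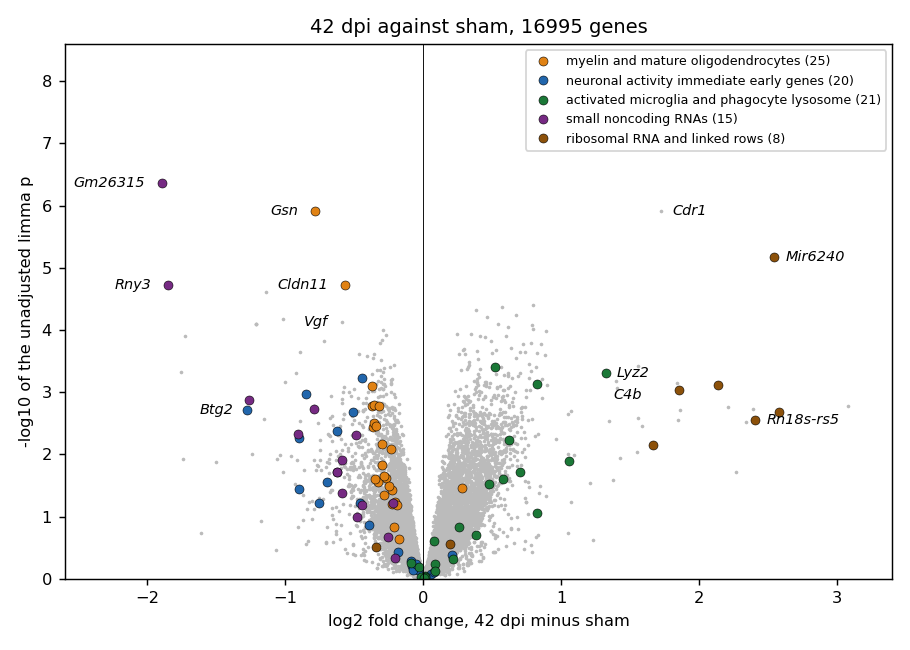
Log2 fold change at 42 dpi against sham (x axis) and -log10 of the unadjusted limma p (y axis) for 16995 genes. Colors mark the measured genes of 5 lists, and the 4 SDEGs are the named points at the top, Gm26315 and Gsn on the left and Cdr1 and Mir6240 on the right.

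Gsn fell at 42 dpi. Gsn (chr2:35256380-35307892, mm10, plus strand) encodes gelsolin, which severs and caps actin filaments and is abundant in mature oligodendrocytes. Its values were 110.1, 79.0, 77.6, 123.1 and 79.8 in the sham animals, in the order in which the animals are listed above. At 42 dpi they were 45.7, 59.6, 49.8, 58.5 and 54.0, so that the highest of these lay below the lowest sham value. The mean fell from 93.9 ± 21.2 to 53.5 ± 5.85 (SD, n = 5 per group), a log2 fold change of -0.78 (SE 0.13, limma adjusted p = 0.00699). The means of the groups at 4, 7, 14 and 28 dpi were 73.1, 73.6, 77.4 and 65.2, all between those of sham and 42 dpi. The difference of 42 dpi from 28 dpi was -0.29 and did not pass the test (limma adjusted p = 0.199). Sham A11-1 and A12-2 were the highest animals, and without A12-2 Gsn was no longer an SDEG (log2 fold change -0.68, limma adjusted p = 0.0577), nor was it without A1-1 (-0.73, adjusted p = 0.0572). Gm43128 overlaps Gsn on the same strand.

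Cdr1 rose at 42 dpi. The row Cdr1 (chrX:61183246-61185558, mm10, minus strand) is annotated as protein-coding, but its locus is known for a circular RNA made from the opposite strand, which is rich in neurons and holds many sites for the microRNA miR-7. Without strand, reads of both strands count toward this row. Values were 35.2, 40.9, 34.9, 29.8 and 48.4 in sham animals. They were 127.5, 119.7, 115.7, 104.7 and 161.4 at 42 dpi, each more than the highest sham value. The mean rose from 37.8 ± 7.09 to 126 ± 21.5 (SD, n = 5 per group), a log2 fold change of 1.72 (SE 0.29, limma adjusted p = 0.00699). The group means were 45.9, 56.3, 77.0 and 127 at 4, 7, 14 and 28 dpi, so that the mean at 42 dpi was close to that at 28 dpi. The difference between 42 and 28 dpi was 0.02 and did not pass the test (limma adjusted p = 0.976). With Rn18s-rs5 as a covariate the log2 fold change was 0.89 (limma adjusted p = 0.0550), and without sham A12-2 the adjusted p was 0.0577.

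The sequence of the locus was read to show what the row can count. The seed of miR-7 (bases 2 to 8, in capitals) and its complement were searched in the annotated transcript of Cdr1, which is 1554 bases long. The mature sequence, from RefSeq (GRCm38.p6), comes from chr7:78888295-78888317, plus strand.
mmu-miR-7a-5p: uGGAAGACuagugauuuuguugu
The 7 bases GTCTTCC, which pair with this seed, occurred 0 times on the annotated strand and 79 times on the opposite one. In GENCODE M21 transcripts of a long noncoding gene on that opposite strand, C230004F18Rik, hold all 601 distinct 20-base words of the Cdr1 transcript. In the deposited table the row of C230004F18Rik (chrX:61116386-61175991) ends before Cdr1 begins, so it may not count reads of the Cdr1 locus. That row had a mean of 14.1 ± 2.78 in sham animals and 18.1 ± 2.19 at 42 dpi (SD, n = 5 per group), which was 0.36 on the log2 scale (limma adjusted p = 0.210). This row was looked up after the values of Cdr1 were seen.

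Mir6240 rose at 42 dpi. This row is the hairpin of a microRNA (chr5:114851948-114852064, mm10, plus strand). The libraries were not made for small RNAs, so the row does not measure the mature form by itself. The mature sequence (RefSeq, GRCm38.p6, chr5:114851973-114851998, plus strand) is shown with its seed in capitals, because this SDEG had the largest fold change.
mmu-miR-6240: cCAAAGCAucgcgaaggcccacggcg
Values were 3.9, 3.1, 3.1, 2.5 and 4.1 in sham animals and 23.6, 25.1, 12.3, 17.9 and 36.0 at 42 dpi. The mean rose from 3.34 ± 0.654 to 23 ± 8.86 (SD, n = 5 per group), a log2 fold change of 2.54 (SE 0.47, limma adjusted p = 0.0285). The group means were 3.53, 4.38, 10.4 and 27.2 at 4, 7, 14 and 28 dpi, and 42 dpi differed from 28 dpi by -0.02 (adjusted p = 0.986). As for Rn18s-rs5, the lowest animal at 42 dpi was A1-3 and the highest was A3-4. With Rn18s-rs5 as a covariate the log2 fold change was 1.00 (limma adjusted p = 0.0156). Mir6240 was an SDEG in 15 of the 22 alternatives in which it was tested, and leaving out any of A1-1, A1-2, A3-4, A11-4, A12-1 or A12-2 raised its adjusted p to between 0.0511 and 0.106. It belongs to a list of ribosomal RNA and linked rows, of which 8 were measured. These 8 had a median log2 fold change of 2.00, and 6 of them were higher with an unadjusted p under 0.05, against 8.4% of all genes.

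Other members of that list differed among themselves in their values. Rn18s-rs5 itself had a log2 fold change of 2.41 (SE 0.74, limma adjusted p = 0.134). AY036118, which lies within the interval of Rn18s-rs5 on chromosome 17, had values of 2948 to 7428 in sham animals and of 12694 to 63473 at 42 dpi (log2 fold change 2.58, limma adjusted p = 0.128). Lars2, the mitochondrial leucyl-tRNA synthetase, had values of 29724 to 48716 and 96363 to 286397 (2.13, adjusted p = 0.106). Its log2 fold change was 0.37 with Rn18s-rs5 as a covariate and 0.18 after quantile normalization. Mir6236 and Gm15564 had log2 fold changes of 1.86 and 1.66 (adjusted p = 0.107 and 0.169), and Gm26917 and Gm42418 of 0.19 and -0.34 (0.655 and 0.681).

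Gm26315 fell at 42 dpi. It is a row (chr2:7076094-7076414, mm10, minus strand) of the type misc_RNA, inside the gene Celf2 on the same strand. Values were 8.8, 8.2, 3.8, 5.1 and 4.4 in sham animals and 1.0, 0.4, 1.3, 1.4 and 2.4 at 42 dpi. The mean fell from 6.06 ± 2.28 to 1.30 ± 0.728 (SD, n = 5 per group), a log2 fold change of -1.90 (SE 0.30, limma adjusted p = 0.00699). It was an SDEG in all 21 alternatives in which it was tested, with log2 fold changes of -2.29 to -1.62. In the 4 to 28 dpi groups the means were 5.28, 1.80, 1.88 and 2.62, and the difference of 42 dpi from 28 dpi did not pass the test (-0.82, limma adjusted p = 0.114). The log2 fold change of Celf2 was 0.14 (limma adjusted p = 0.585).

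Gm26315 shares sequence with the RNA 7SK, which holds the transcription elongation factor P-TEFb in an inactive complex. Of its 302 distinct 20-base words 71.5% occur in Rn7sk, the gene of 7SK, and reads of such copies cannot be assigned with certainty. Rn7sk had a mean of 11280 ± 2695 in sham animals and 8327 ± 2371 at 42 dpi (log2 fold change -0.45, limma adjusted p = 0.377). The other measured rows that share over 50% of these words were Gm26035 and Gm24447. Gm26035 had values of 6.0 to 8.4 in sham animals and 2.0 to 4.1 at 42 dpi (-1.14, adjusted p = 0.0590), and Gm24447 had values of 4.4 to 7.0 and 2.2 to 3.4 (-0.89, adjusted p = 0.0821). In both the groups did not overlap. Rn7sk, Gm26035 and Gm24447 were named after their values were seen.

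**Figure D3:**
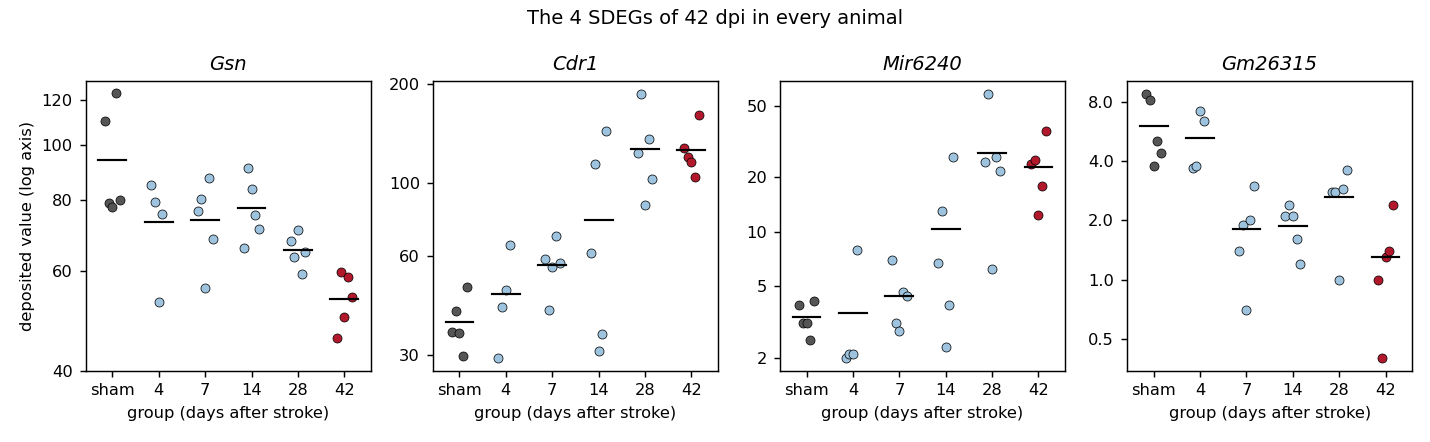
Deposited values of the 4 SDEGs of 42 dpi in every animal of the series, on log axes, by group in days after stroke. Points are animals (4 at 4 dpi, 5 in each other group), bars are group means, sham is grey and 42 dpi is red. In each panel the red points lie wholly on one side of the grey ones, for example at 45.7 to 59.6 against 77.6 to 123.1 for Gsn.

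Small noncoding RNAs had lower values at 42 dpi as a list. All 15 measured members had a negative log2 fold change, 10 of them with an unadjusted p under 0.05, and the median was -0.59. The groups did not overlap in 1 of the 15, Gm26315, the only SDEG among them. Over all genes 6.35% were lower at an unadjusted p under 0.05 and 1.1% were lower without overlap. Rny3 and Rny1 are Y RNAs, which bind the Ro protein and take part in RNA quality control. Rny3 (chromosome 6) had values of 3.0, 5.8, 9.8, 9.7 and 5.2 in sham animals and 0.5, 0.5, 0.8, 2.6 and 4.8 at 42 dpi, where A3-4 lay within the sham range. The log2 fold change of Rny3 was -1.85 (SE 0.37, limma adjusted p = 0.0538), and without A3-4 it was -2.24 (adjusted p = 0.00121). Rny1 had a log2 fold change of -1.27 (adjusted p = 0.116). Rmrp, the RNA of a ribonuclease that processes ribosomal RNA, had values of 469 to 801 and 289 to 606 (-0.79, adjusted p = 0.126). The signal recognition particle RNAs Rn7s1 and Rn7s2 are near-identical copies with nearly equal values in each animal, and both had a log2 fold change of -0.63 (adjusted p = 0.235). In A3-4 the median member of the list stood at 0.04 relative to the sham mean on the log2 scale, against -0.96 to -0.56 in the other 4 animals. Over the leave-one-out fits the list's median was -0.80 to -0.52. With Rn18s-rs5, which was highest in A3-4, as a covariate the median was -0.91.

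The rows Gm23935, Gm24270 and Gm24245, of the type miRNA, are copies of each other. They share all 38 of their 20-base words and had the same values in every animal to within 0.1, so they are 1 measurement. Values were 307.4, 338.8, 225.1, 263.2 and 158.5 (Gm23935) in sham animals and 63.3, 125.4, 89.5, 152.7 and 132.7 at 42 dpi, with no overlap. The log2 fold change was -1.21 (SE 0.27, limma adjusted p = 0.0724). These rows also differed between 42 and 28 dpi, by -1.10 (limma adjusted p = 0.0331). Gm10925, on chromosome 1, is a pseudogene copy of the mitochondrial gene mt-Atp6, in which all of its 659 words occur. Its values were 0.0, 0.3, 2.0, 1.5 and 0.9 in sham animals and 9.7, 11.6, 13, 4.8 and 13 at 42 dpi. The log2 fold change was 3.08 (SE 0.89, limma adjusted p = 0.125), while mt-Atp6 went from a mean of 1494 to 1774 (0.29, adjusted p = 0.512). Gm10925 was an SDEG with Rn18s-rs5 as a covariate (4.66, adjusted p = 0.0482) and in a fit of only the 10 animals (adjusted p = 0.00196).

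Myelin genes had lower values at 42 dpi. Of the 25 measured genes of myelin and mature oligodendrocytes, 24 had a negative log2 fold change and 19 of these an unadjusted p under 0.05. The groups did not overlap in 8 of the 25. Over all genes 6.35% were lower at an unadjusted p under 0.05 and 1.1% were lower without overlap. The median log2 fold change of the 25 was -0.30, and Gsn was the only SDEG among them. Cldn11, a tight junction protein of the myelin sheath, had values of 127.0, 131.7, 133.4, 171.9 and 127.7 in sham animals and 85.2, 86.9, 87.9, 105.7 and 97.7 at 42 dpi. All 5 of these lay below the sham range, and the log2 fold change was -0.57 (SE 0.11, limma adjusted p = 0.0538). Its adjusted p was 0.0416 without A3-4, 0.0331 without A1-4 and 0.182 without A1-3. Mal, a proteolipid of myelin, had values of 223 to 285 in sham animals and 158 to 208 at 42 dpi (-0.37, adjusted p = 0.106). Mog, on the outer face of the sheath, had values of 63.9 to 88.4 and 51.3 to 63.1 (-0.36, adjusted p = 0.125). Mag, which holds myelin to the axon and inhibits neurite growth, had values of 274 to 371 and 233 to 253 (-0.37, adjusted p = 0.125). None of Mal, Mog and Mag overlapped between the groups.

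Mbp and the oligodendrocyte precursors were also described. Mbp, chosen here after its value was seen, encodes the basic protein that compacts the sheath and had values of 2371 to 3832 in sham animals and 2128 to 2475 at 42 dpi (-0.29, limma adjusted p = 0.325). Of 16 genes of oligodendrocyte precursors and the lineage, 13 had a negative log2 fold change, with a median over the 16 of -0.21. An unadjusted p under 0.05 was found for 7 of these 13, against 6.35% of all genes lower at that limit. Enpp6, a marker of newly formed oligodendrocytes, had values of 10.2 to 24.5 and 9.0 to 13.5 (-0.45, adjusted p = 0.189). Sham A11-1 and A12-2, at 21.2 and 24.5, were the highest for Enpp6, and without A12-2 its log2 fold change was -0.28 (adjusted p = 0.432). Gpr17, of committed precursors, had values of 24.5 to 38.5 and 22.4 to 25.8 (-0.31, adjusted p = 0.179). Ptprz1, a receptor phosphatase of precursors and astrocytes, went the other way (0.22, adjusted p = 0.169), with no overlap. The 25 myelin genes summed to 8663 to 12504 in sham animals and 7246 to 8690 at 42 dpi. Sham A12-2 was the highest animal, with a median member 0.28 above the sham mean on the log2 scale, and without it the median log2 fold change was -0.24. In bulk samples fewer cells of a type, less RNA per cell and less white matter in a dissected piece cannot be told apart.

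Immediate early genes had lower values at 42 dpi. Of 20 measured, 17 had a negative log2 fold change, 8 of them with an unadjusted p under 0.05. The groups did not overlap in 5, and the median was -0.42. Over all genes 6.35% were lower at an unadjusted p under 0.05 and 1.1% were lower without overlap. Btg2, an antiproliferative immediate early gene, had values of 10.8, 9.7, 9.2, 10.5 and 8.8 in sham animals and 2.7, 3.5, 5.3, 2.4 and 5.8 at 42 dpi. No animal at 42 dpi reached the sham range, and the log2 fold change was -1.28 (SE 0.38, limma adjusted p = 0.128). Dusp1, a phosphatase of MAP kinases, had values of 13.6, 18, 15.2, 17.9 and 13.9 in sham animals and 8.3, 6.0, 8.0, 7.5 and 11.7 at 42 dpi (-0.90, SE 0.30, adjusted p = 0.156). Nr4a1, an orphan nuclear receptor, had values of 4.4 to 6.5 and 1.9 to 3.5 (-0.90, adjusted p = 0.297). Junb, a subunit of AP-1, had values of 6.4 to 8.6 and 3.6 to 5.5 (-0.63, adjusted p = 0.147), and Atf3, a transcription factor of stressed and injured neurons, of 0.7 to 1.6 and 0.1 to 0.5 (-0.75, adjusted p = 0.365). Each of these 5 was without overlap. The AP-1 subunits Jun and Jund had log2 fold changes of -0.51 and -0.45 (adjusted p = 0.128 and 0.106), Ier2 of -0.85 (0.111), and Fos, named after its value was seen, of -0.46 (0.366).

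The limma fit over all 29 animals with values called none of these 20 genes, whereas a fit of only the 10 animals of the groups called as SDEGs Btg2 (adjusted p = 0.00858), Dusp1 (0.0101), Nr4a1 (0.0250) and Junb (0.0493). With Rn18s-rs5 as a covariate the log2 fold changes of Btg2 and Dusp1 were -1.64 and -1.34 (adjusted p = 0.191 and 0.159), and the median of the list was -0.47. When length and GC content were corrected for, it was -0.30. The median member of the list stood at -0.40 to -0.25 relative to the sham mean in the 5 animals at 42 dpi and at -0.086 to 0.17 in the sham animals.

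Promoters of these genes were searched for the cAMP response element, TGACGTCA, which is its own reverse complement. RefSeq promoters (GRCm38.p6, 250 bases before to 50 after the start) were at hand for 16 of the 20 genes, and 2 of them, Btg2 and Dusp1, held the motif. Among all 11804 measured genes with a promoter sequence, 406 (3.44%) held it. The 30 bases around it are shown with the motif in capitals, from the minus strand of chr1:134079303-134079332 and of chr17:26508597-26508626.
Btg2: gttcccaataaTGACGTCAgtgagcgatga
Dusp1: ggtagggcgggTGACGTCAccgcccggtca
A match of letters is a description, and the other 14 promoters lacked these letters only in the window searched.

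Other protein-coding genes with low log2 fold changes and no overlap were Cyr61, Apold1, Klf2 and Id1. Cyr61, a matricellular protein and early target of YAP, had values of 6.5, 5.2, 5.0, 6.2 and 5.2 in sham animals and 2.2, 1.0, 2.0, 0.4 and 1.6 at 42 dpi (log2 fold change -1.75, SE 0.45, limma adjusted p = 0.102). Apold1, an immediate early gene of endothelial cells, had values of 10 to 16.9 and 3.1 to 7.7 (-1.24, adjusted p = 0.187). Klf2, a transcription factor that responds to shear stress in endothelium, had values of 2.3 to 5.0 and 1.6 to 2.0 (-0.96, adjusted p = 0.191), and Id1, an inhibitor of basic helix-loop-helix factors, of 4.2 to 6.9 and 2.1 to 4.1 (-0.67, adjusted p = 0.129). Of 20 markers of endothelial cells and pericytes, 13 had a negative log2 fold change, 3 with an unadjusted p under 0.05 (6.35% over all genes), with a median of -0.076. The other 7 were positive. The groups did not overlap in 1 of the 20, Vwf, the von Willebrand factor of endothelium, against 2.21% of all genes higher without overlap. Vwf had values of 6.0 to 9.1 in sham animals and 9.5 to 14.3 at 42 dpi (0.39, adjusted p = 0.213). The sum of the 20 was 394 to 454 in sham animals and 374 to 443 at 42 dpi.

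**Figure D4:**
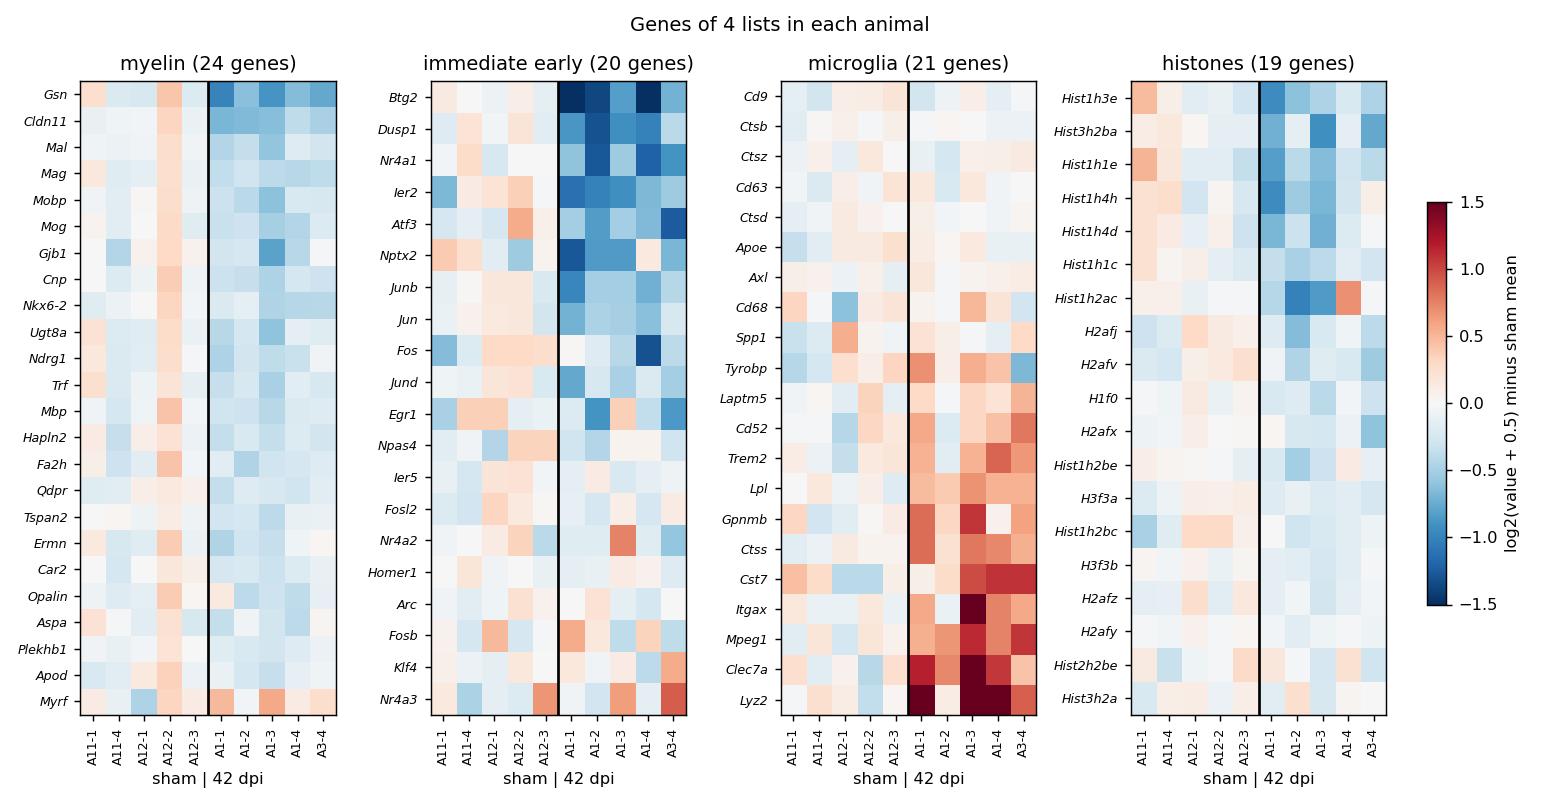
Log2(value + 0.5) minus the sham mean for measured genes (rows) of 4 lists in each of the 5 sham animals and 5 animals at 42 dpi (columns, separated by a line). Blue is below and red above the sham mean. The myelin panel is mostly blue at 42 dpi and reddest in sham A12-2, where the median of all 25 measured members of the list lies 0.28 above the sham mean.

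Most genes of phagocytic microglia had positive log2 fold changes at 42 dpi, but the groups overlapped on the list as a whole. Of 21 measured genes of activated microglia and the phagocyte lysosome, 18 had a positive log2 fold change, 8 of them with an unadjusted p under 0.05. The groups did not overlap in 4, none of the 21 was an SDEG, and the median was 0.26. Over all genes 8.4% were higher at an unadjusted p under 0.05 and 2.21% were higher without overlap. The summed level of the 21 was 991 to 1273 in sham animals and 1127 to 1254 at 42 dpi, with overlap. The median member stood at 0.025 relative to the sham mean in A1-2, within the sham range of -0.076 to 0.10. In the other animals at 42 dpi it stood at 0.21 to 0.50. A fit of only the 10 animals called Mpeg1 (limma adjusted p = 0.0120) and Ctss (0.0189) as SDEGs. Mpeg1, a pore-forming protein of phagocytes, had values of 5.8, 7.5, 5.4, 7.5 and 6.9 in sham animals and 9.7, 10.7, 14.8, 11.3 and 14.4 at 42 dpi (log2 fold change 0.83, SE 0.22, limma adjusted p = 0.106). Ctss, a lysosomal protease of microglia, had values of 16.1 to 19.7 and 21.1 to 32.4 (0.62, adjusted p = 0.158). Lpl, a lipoprotein lipase, had values of 11.3 to 14.6 and 17.2 to 21.1 (0.52, adjusted p = 0.0989). In these 3 every animal at 42 dpi exceeded the sham range. Lyz2, a lysozyme of macrophages, had values of 2.7, 3.3, 3.0, 2.0 and 2.8 in sham animals and 10.6, 3.0, 14.5, 9.3 and 5.5 at 42 dpi, where A1-2 lay within the sham range (1.32, SE 0.34, adjusted p = 0.102). Lyz2 was an SDEG with Rn18s-rs5 as a covariate (1.83, adjusted p = 0.0482).

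Markers of microglia at rest were also described. Of 16 measured, 12 had a positive log2 fold change and 1, Siglech, an unadjusted p under 0.05 (0.37, limma adjusted p = 0.179), and their median was 0.094. Over all genes 8.4% were higher at that limit, so that the count of 1 was near the background. The summed level of the 16 was 168 to 203 in sham animals and 188 to 214 at 42 dpi. The median of the phagocyte list was 0.075 when only genes with a mean of at least 5 were kept. Among 15 measured complement genes the groups did not overlap in C4b and C3ar1. C4b, a component of the classical pathway, had values of 11.7, 6.2, 4.8, 15.1 and 4.3 in sham animals and 16.3, 15.6, 35.3, 20.2 and 20 at 42 dpi (1.40, SE 0.37, adjusted p = 0.106). C3ar1, the receptor for a fragment of C3, had values of 0.6 to 1.0 and 1.1 to 2.6 (0.56, adjusted p = 0.223). The complement list had a median of 0.32, with 13 of 15 positive and 3 with an unadjusted p under 0.05. Over all genes 8.4% were higher at that limit and 2.21% were higher without overlap. The median complement gene stood at 0.058 relative to the sham mean in A3-4, within the sham range of -0.11 to 0.10. It stood at 0.14 to 0.55 in the other animals at 42 dpi.

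The 13 immune genes that the study named for the early phase all had positive log2 fold changes at 42 dpi, with a median of 0.48. Of these, 7 had an unadjusted p under 0.05, against 8.4% of all genes higher at that limit. The study chose the 13 on these samples, so their direction is not independent evidence. Lag3, an inhibitory receptor of lymphocytes also made by microglia, had values of 0.7, 0.7, 0.6, 0.9 and 0.6 in sham animals and 1.8, 1.0, 2.6, 1.5 and 2.0 at 42 dpi (0.89, SE 0.20, limma adjusted p = 0.0724). Fcgr2b, the inhibitory Fc receptor, had values of 1.4 to 2.0 and 2.2 to 3.7 (0.57, adjusted p = 0.157), and Clec7a, the beta-glucan receptor dectin-1, of 0.0 to 0.3 and 0.4 to 2.0 (1.05, adjusted p = 0.208). These 3, Mpeg1 and C4b were the members without overlap, against 2.21% of all genes higher without overlap. Trem2, a lipid-sensing receptor of microglia, had values of 2.4 to 3.7 and 2.8 to 6.3 (0.48, adjusted p = 0.279). C1qa, which starts the classical pathway, had values of 8.9 to 11.6 and 10.9 to 16.1 (0.35, adjusted p = 0.477). Cd22, an inhibitory lectin receptor outside these lists, had values of 0.4 to 1.3 in sham animals and 1.4 to 2.0 at 42 dpi (0.76, adjusted p = 0.134).

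The 16 growth genes that the study named for the late phase had a median log2 fold change of 0.21 at 42 dpi, and of 0.59 at 28 dpi, a comparison with the same sham animals. Of the 16, 13 were positive at 42 dpi, 5 were higher with an unadjusted p under 0.05 (8.4% over all genes), and none was an SDEG. The 3 negative members were Bdnf, a neurotrophin, and the metallothioneins Mt1 and Mt2, which stood at -0.17, -0.15 and -0.020 on the log2 scale (adjusted p = 0.678, 0.745 and 0.976, limma). The list pools growth promoters and inhibitors that the study named in both directions, Bdnf, Mt1 and Mt2 as lower, so its median mixes directions. It too was chosen on these samples. Gdf7, a ligand of the BMP family, had values of 1.8, 1.6, 3.1, 2.1 and 2.5 in sham animals and 5.7, 7.0, 3.3, 7.8 and 12.3 at 42 dpi (1.42, SE 0.53, limma adjusted p = 0.196). Its lowest and highest animals at 42 dpi were those with the lowest and highest Rn18s-rs5, A1-3 and A3-4, and with Rn18s-rs5 as a covariate the log2 fold change was -0.24 (adjusted p = 0.831), whereas Gdf7 was an SDEG in a fit of only the 10 animals (adjusted p = 0.0243). Sema6a, a transmembrane semaphorin of axon guidance, had values of 27.5 to 37.1 and 34.1 to 42.2 (0.33, adjusted p = 0.141). Ntng2, a netrin-like adhesion protein of axons, and Tgfb1, a cytokine of tissue repair, had log2 fold changes of 0.17 and 0.11 (adjusted p = 0.617 and 0.844), with overlapping groups. Ntng2 was lower at 42 than at 28 dpi (log2 difference -0.59, limma adjusted p = 0.0331), while Gdf7, Sema6a and Tgfb1 had adjusted p of 0.638, 0.139 and 0.352 in that contrast.

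Genes of axon guidance and of neuronal growth were read from lists wider than those of the study. Among 37 genes of ephrin, slit, robo and netrin guidance, 7 were higher and 3 lower with an unadjusted p under 0.05, and the groups did not overlap in 5, all higher. Over all genes these shares were 8.4% higher, 6.35% lower and 2.21% higher without overlap, so that the count of lower members was near the background. Ntng1 had values of 24.4 to 29.1 and 30.5 to 33.4 (0.26, limma adjusted p = 0.0821), and Srgap3, which acts on actin below Robo receptors, of 154 to 184 and 195 to 266 (0.34, adjusted p = 0.125). Among 31 semaphorins, plexins and neuropilins, 5 were higher and 3 lower with an unadjusted p under 0.05 and the median was 0.011, and the count of lower members was again near the background. Among them Sema6b had values of 33.0 to 38.9 and 24.1 to 32.3 (-0.31, adjusted p = 0.0895), and Plxna4, a coreceptor of semaphorins, of 111 to 137 and 141 to 159 (0.28, adjusted p = 0.125). Of 22 growth-associated genes of neurons, 17 had a negative log2 fold change and 6 of these an unadjusted p under 0.05, with a median of -0.14. Among them Marcksl1, an actin-regulating substrate of protein kinase C, had values of 9.3 to 15.4 and 6.6 to 8.6 (-0.48, adjusted p = 0.128), and Tubb2b, a tubulin of growing neurons, of 37.0 to 44.4 and 27.2 to 36.4 (-0.34, adjusted p = 0.128).

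Most neuropeptides had negative log2 fold changes, but the groups overlapped on the list as a whole. Of 14 measured neuropeptides and granins, 12 had a negative log2 fold change, 3 with an unadjusted p under 0.05, against 6.35% of all genes. The median of the list was -0.25, and -0.14 with Rn18s-rs5 as a covariate. The median member stood at -0.24 to 0.23 relative to the sham mean in sham animals and at -0.40 to -0.13 at 42 dpi. The summed level was 528 to 720 and 523 to 582. Vgf, a secreted peptide precursor induced by activity and neurotrophins, had values of 45.3, 48.3, 77.5, 49.1 and 56.5 in sham animals and 35.4, 36.3, 42.3, 32.0 and 33.9 at 42 dpi, without overlap (-0.59, SE 0.13, limma adjusted p = 0.0724). It was an SDEG in a fit of only these 10 animals (adjusted p = 0.0478). Penk, the precursor of enkephalin, had values of 29.8 to 40 and 24.2 to 31.7 (-0.32, adjusted p = 0.289). Among 20 neurotrophins and receptors, 3 were higher and 1 lower with an unadjusted p under 0.05, against 8.4% and 6.35% of all genes. Their median was 0.11. In this list Ntrk3, the receptor of NT-3, had values of 106 to 139 and 146 to 174 (0.37, adjusted p = 0.106). Tox2 and Nova2, outside these lists, were among the protein-coding genes with the largest positive log2 fold changes without overlap. Nova2, a splicing factor of neurons, had values of 7.4 to 11 and 12.5 to 21.3 (0.79, SE 0.17, adjusted p = 0.0724), and Tox2, an HMG-box protein, of 3.9 to 5.8 and 7.9 to 10.1 (0.82, SE 0.20, adjusted p = 0.0821). Gm20594, a short row on chromosome 6 in which 18.8% of the words occur in mt-Rnr2, had values of 0.1 to 0.4 and 1.1 to 2.9 (1.55, adjusted p = 0.0989). With Rn18s-rs5 as a covariate the log2 fold change of Gm20594 was 0.38 (adjusted p = 0.631).

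Synaptic and chromatin genes had more members with higher values, and histones had lower ones. Over all genes 8.4% were higher and 6.35% lower with an unadjusted p under 0.05. Among 43 genes of synaptic vesicles and release, 13 were higher and 0 lower at that limit, although the median was 0.041. Syn1, a phosphoprotein of vesicles, had values of 50.6 to 73.9 and 77.0 to 112.0 (0.49, limma adjusted p = 0.122), and Nrxn3, a presynaptic adhesion protein, of 148 to 198 and 219 to 259 (0.38, adjusted p = 0.107). Among 36 chromatin regulators, a list chosen for long messages, 13 were higher and 0 lower with an unadjusted p under 0.05, with a median of 0.15. The median was 0.091 without sham A12-1, in which the median member stood at -0.27 relative to the sham mean. Kmt2a, a histone methyltransferase, had values of 57.2 to 82.9 and 91.6 to 128.5 (0.50, adjusted p = 0.111). All 19 histone genes had a negative log2 fold change, 10 of them with an unadjusted p under 0.05, with a median of -0.23 and overlap between the groups in each. Hist1h1e, a linker histone, had values of 29 to 53.4 and 20.8 to 30.2 (-0.52, adjusted p = 0.151). Of 15 mitochondrially encoded genes 14 were positive, with a median of 0.32 that was 0.17 without sham A11-1. Over all genes, the slope of the log2 value on gene length was -0.00042 to 0.027 per doubling of length at 42 dpi and -0.043 to 0.049 in sham animals (exact permutation p = 0.341).

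**Figure D5:**
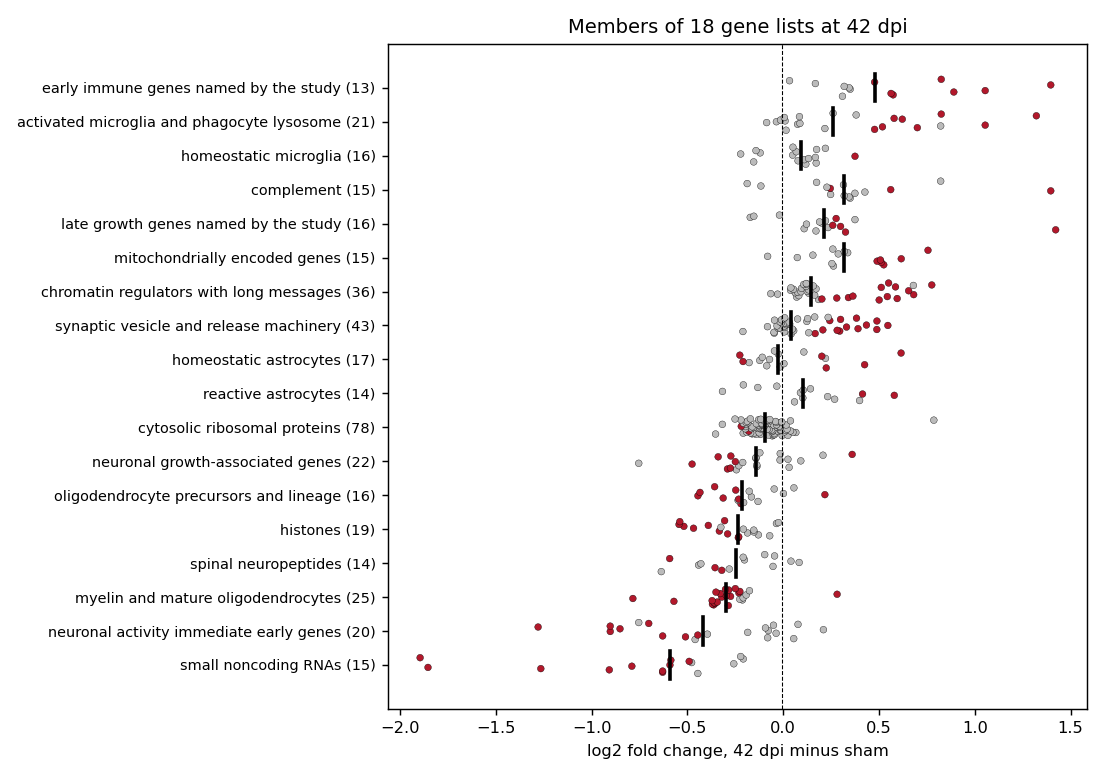
Log2 fold change at 42 dpi against sham for each measured member (points) of 18 gene lists, with the number measured in parentheses. Black bars are list medians, red points have an unadjusted limma p under 0.05, and the dashed line is the median over all genes, -0.0070. Medians run from -0.59 for small noncoding RNAs to 0.48 for the early immune genes.

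Markers of other cells that a dissection could include were checked. Of 12 pituitary genes 5 were in the table, and Gh and Prl were at 0.0 to 0.2 in sham animals and 0.0 to 1.8 at 42 dpi, highest in A1-1. Of 13 markers of sensory ganglia 8 were in the table, with a sum of 34.8 to 106.5 in sham animals and 27.2 to 69.2 at 42 dpi. Calca, a peptide of sensory and motor neurons, had values of 8.3 to 28.5 and 4.0 to 13 (-1.04, limma adjusted p = 0.188). The 8 measured Schwann cell genes, of which Sox10 is shared with oligodendrocytes, summed to 114 to 145 and 110 to 126, and the 12 measured genes of meninges and fibroblasts to 221 to 337 and 224 to 249. The 6 measured blood genes summed to 10.2 to 19.2 and 10.9 to 31.7, the 9 of choroid plexus and ependyma to 25.6 to 53.0 and 31.0 to 46.9, and the 2 of skeletal muscle to 6.9 to 13.5 and 7.5 to 13.5. The 17 genes of homeostatic astrocytes summed to 7255 to 7777 and 7481 to 8151, and their median log2 fold change was -0.026. Of the 17, 4 were higher and 2 lower at an unadjusted p under 0.05, against 8.4% and 6.35% of all genes. Among them Atp1b2, a subunit of the sodium pump, had values of 113 to 161 and 173 to 280 without overlap (0.62, limma adjusted p = 0.103), whereas Fgfr3, a receptor of fibroblast growth factors, had a mean of 163 ± 16.4 in sham animals and 139 ± 12 at 42 dpi (SD, n = 5 per group, -0.23, limma adjusted p = 0.134). The 15 measured genes of cholinergic and motor neurons, which lie mainly in the ventral horn, summed to 3196 to 5201 and 3303 to 4756. Of these, 13 had a negative log2 fold change and the median was -0.14, but only 1 was lower with an unadjusted p under 0.05, a share near the 6.35% of all genes. It was -0.40 without A3-4 and 0.0079 without sham A12-1. The median member stood at 0.46 relative to the sham mean in A3-4, at -0.45 to -0.21 in the other 4 animals at 42 dpi and at -0.65 to 0.63 in sham animals. None of these marker genes was an SDEG, and their part in the results above was not tested.

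Compared with 28 dpi, the time point before it, 42 dpi differed in 38 genes by the limits used for SDEGs. None of the 4 SDEGs of 42 dpi was among them. Sham animals do not enter this contrast, but its groups share label unit 3, which holds A3-4 of 42 dpi and A3-1 and A3-3 of 28 dpi. Of the 28 genes named for the largest changes, only the copies Gm23935, Gm24270 and Gm24245 passed an adjusted p under 0.05 in it. For Btg2 the difference of 42 from 28 dpi was -0.59 (limma adjusted p = 0.370), for Cyr61 -1.19 (0.125), for Ctss 0.49 (0.168) and for Cldn11 0.0066 (0.981).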

How the data were processed

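RNA of 29 animals was available as 1 table, in which each value is a score: normalized CPM that the authors made from SALMON estimates imported with Tximport and scaled with edgeR (R 3.4.1 and edgeR 3.14.0 per the submitters' processing notes), rounded to 0.1 before they deposited it. Read counts were not used, so depth is unknown. Columns of the authors' own comparisons were not used. log2(value + 0.5) of all 16995 genes was fitted by group in limma 3.58.1 (R 4.3.3) over all 29 animals, with trend and Benjamini-Hochberg adjustment. Single measures per animal were compared by exact two-sided permutation tests (scipy 1.17.1, Python 3.11.15). Each sample was a separate animal. GENCODE M21 held 16930 of the genes. The comparison and the 56 gene lists were chosen with earlier results of these data known. Genes were named as SDEGs, as the 10 protein-coding and 4 other genes with the largest change each way among those with a mean of at least 1 and no overlap, as up to 4 genes per list by p or as members of the study's, ribosomal RNA and other-cell lists, with a few added and named as such. Alternatives covered scaling, filters, pseudocount, the samples fitted, a unit block, ribosomal RNA, length and GC content, and leaving out each animal. Single genes left out of the text and plots are not reported here.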

Additional observations from a re-analysis of the deposited data

Results flagged for a closer look

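In 70 groups of 5 animals, 2 held an animal far from the others, where chance gives about 1 in 20 groups. For Klf2, a transcription factor of endothelium, sham A11-1 had a value of 2.3, below the 4.2 to 5.0 of the other sham animals. For Rn18s-rs5, an 18S ribosomal RNA gene, sham A12-1 had a value of 52929, above the 30321 to 36052 of the other sham animals. Of 28 genes compared with 28 dpi, Gm23935, Gm24270 and Gm24245, near-identical rows that are 1 measurement, were lower at 42 than at 28 dpi by a log2 difference of -1.10 each (limma adjusted p = 0.0331).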

How the results depend on the processing

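The 4 SDEGs became 7 when values outside the ribosomal RNA rows were scaled to the same sum, 43 when only the 10 animals of the groups were fitted, 33 at an adjusted p under 0.1, 39 when the unit number in the labels was a random block and 10 with Rn18s-rs5 as a covariate. The unit block had an estimated correlation of -0.044, a negative value. Because unit and group cannot be told apart, that fit cannot account for differences between units, and its count of 39 is not read as a gain. Leaving out single animals gave 1 to 12 SDEGs, with 1 without sham A12-2, 2 without A1-1, 7 without sham A12-3 and 12 without A3-4. The copies Gm23935, Gm24270 and Gm24245, which are 1 measurement, are counted separately in the 43, 33 and 39 and in the 7 without sham A12-3. Why the number of SDEGs moved was not tested. Gm26315 was an SDEG in every alternative in which it was tested, Gsn and Cdr1 in 20 of 22 and Mir6240 in 15 of 22. Each list median under the alternatives was compared with the SD of that list's medians among the 5 animals at 42 dpi. Of 1231 such medians, 1190 moved by less than this SD and 41, in 20 lists, by more. For the phagocyte list the SD was 0.19, so its move from 0.26 to 0.075 counted as less. No paired analysis was possible because the groups share no replicate numbers. Without read totals, precision at low values cannot be given.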
